A study of Mus musculus with 6 samples.

Results

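The genes described here encode the proteins that cut introns out of pre-mRNA or steer that reaction: the SR proteins, the hnRNPs, the Sm and other snRNP proteins, the SF3 and U2AF factors, the LSm proteins and the PRPF proteins. Members were taken by symbol, from probe sets that name exactly 1 gene, which gave 74 of the 19938 genes measured (98 probe sets). They comprised 10 SR, 17 hnRNP, 10 Sm and snRNP, 9 SF3, 3 U2AF, 13 LSm and 12 PRPF genes. Another 18 probe sets carry a matching symbol together with that of another gene and were not used.

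The RNA came from MC3T3-E1, an established line of osteoblast precursors from the calvaria of newborn C57BL/6 mice, hybridised to Affymetrix whole-transcript arrays, 1 array per sample. The undifferentiated group (3 arrays) was grown in α-MEM that lacked ascorbic acid, with 10% serum, and received no induction. The differentiated group (3 arrays) was induced from confluence for 14 days in DMEM with 10% serum, sodium pyruvate at 1 mM, dexamethasone at 0.1 µM, ascorbic acid 2-phosphate at 0.2 mM and β-glycerophosphate at 10 mM. All arrays come from 1 cell line, the base medium, the confluence and the added compounds differ between the groups together, so their parts cannot be told apart. The replicates are called independent without a statement of what separated them, and p-values measure the spread between these samples. The comparison addresses how expression differs once the line has been induced towards osteoblasts. In bulk RNA, fewer cells of a kind and less RNA per cell cannot be told apart.

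The spliceosome is assembled anew on each intron from small nuclear ribonucleoprotein particles (snRNPs), each a short RNA wrapped in a ring of Sm proteins or, for U6, of LSm proteins. U1 reads the 5′ splice site, the U2AF dimer reads the 3′ splice site, and the SF3a and SF3b complexes hold U2 on the branch point. The tri-snRNP with its PRPF proteins then forms the catalytic centre. SR proteins mostly favour the use of an exon and hnRNPs often oppose it, so the balance between them sets which exons a cell keeps.

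Each deposited value is a log2 expression value from which the median of its probe set over the 6 arrays has been subtracted, so differences between arrays can be read and levels cannot. Over all genes the SD of the residuals was widest in undifferentiated replicate 3, at 0.0947 against 0.0745 to 0.0867 in the other arrays. It was the lowest undifferentiated array for 52 of the 74 members (70.3%), against 33.2% of all genes, and for 21 of the 23 Sm, snRNP and LSm genes. Undifferentiated replicate 2 was the highest for 18 of those 23 genes. In a proliferation list undifferentiated replicate 3 was likewise lowest for 15 of 15 measured genes, while replicate 2 was highest for 9 and replicate 1 for 6. Of 7 measured osteoblast markers, Dmp1 (log2 fold change 3.44 ± 0.20, SE), Ibsp (3.12 ± 0.09) and Alpl (0.96 ± 0.08) rose. Col1a1 (-0.40 ± 0.07) and Sp7 (-0.40 ± 0.07) fell, 2 did not pass, and the rest of the 10 listed were not measured. Of markers of other cell types, 1 of 6 adipocyte (Fabp4, 0.46 ± 0.06), 2 of 6 chondrocyte (Sox9, 0.59 ± 0.07, and Comp, 0.33 ± 0.07), 2 of 6 macrophage (Cd68, 0.44 ± 0.10, and Cd14, 0.42 ± 0.05) and 1 of 5 endothelial genes (Vwf, 0.23 ± 0.06) rose, Col2a1 of cartilage fell (-1.01 ± 0.06), and 0 of 5 muscle genes passed. For scale, 16.4% of all genes rose and 19.1% fell. The part of these markers in the splicing gene changes was not tested, and whether a marker was expressed cannot be read from centred values.

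Most splicing genes were lower in differentiated cells. At a Benjamini-Hochberg adjusted p under 0.05 from limma, 57 of the 74 members fell, where 19.1% of all genes did, and 3 rose (Srsf5, Srsf11 and Prpf40b), where 16.4% of all genes did. Together 60 members passed, against 35.5% of all genes. The remaining 14 did not pass. The falls were moderate: the median log2 fold change (differentiated minus undifferentiated) over the 74 members was -0.43, against 0.02 over all genes. Snrpa1 and Lsm3 alone fell at least 2-fold, while 2.28% of all genes did, and no member rose by that much, against 2.53% of all genes (4.81% in either direction). The 3 differentiated arrays lay wholly below the 3 undifferentiated ones for 61 members, against 23.0% of all genes, and wholly above for 4, against 23.2% (46.2% either way). Proliferation genes moved in the same direction and further: 15 of 15 measured members of that list fell, with a median of -2.01 and a range from -2.94 in Mki67 to -0.37 in Pcna, and their part in the splicing gene changes was not tested. Without undifferentiated replicate 3, 58 members fell and 2 rose.

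**Figure D1:**
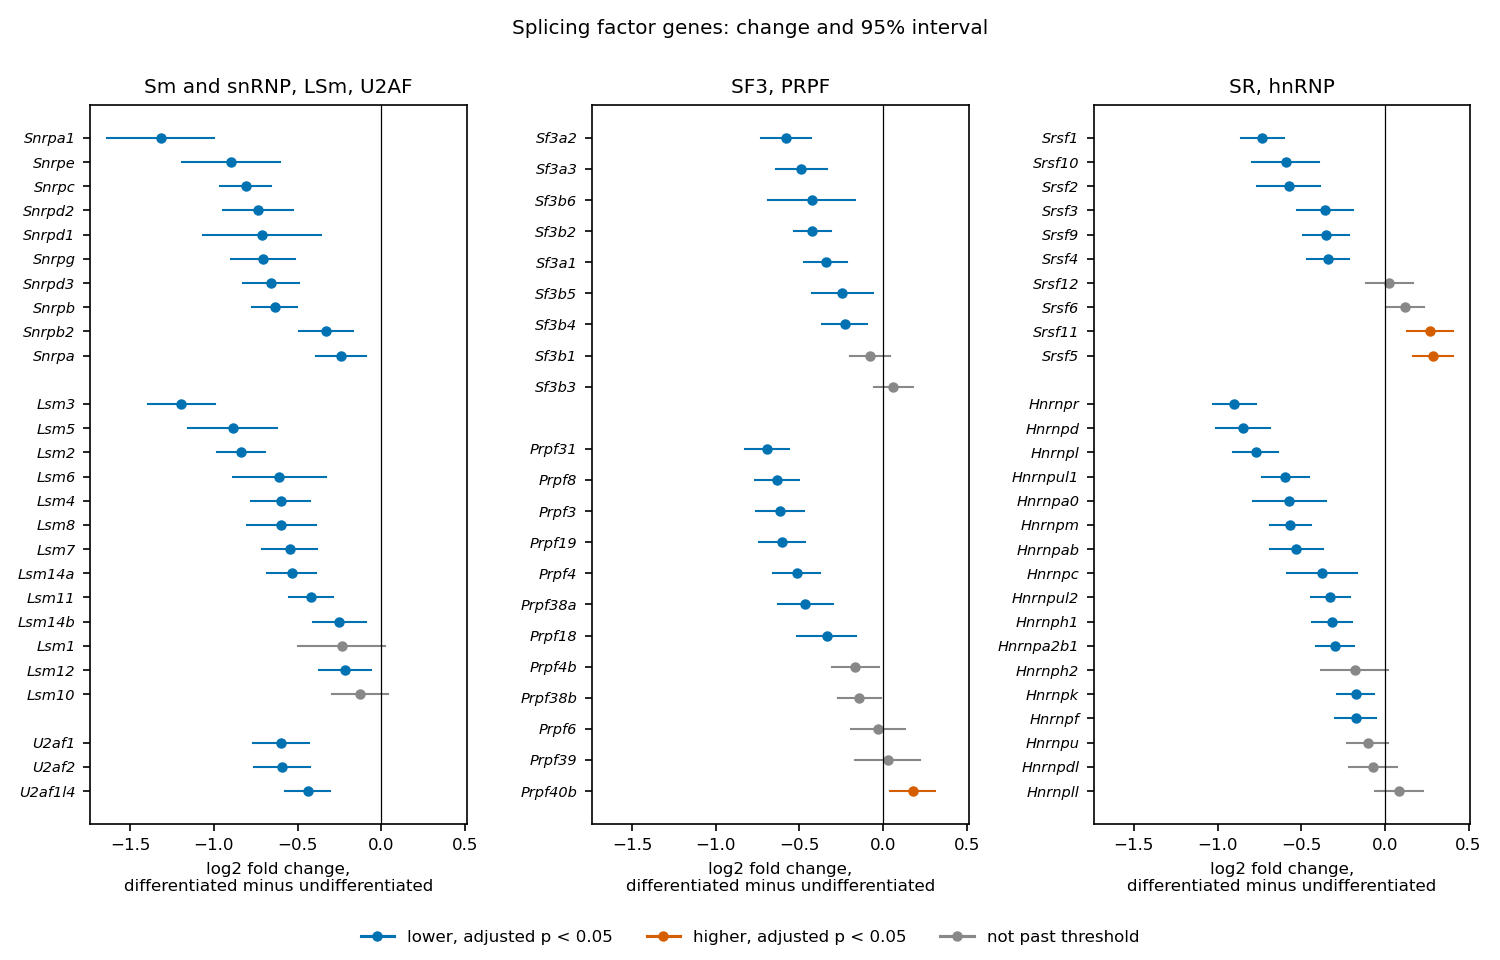
Each point is the log2 fold change of 1 splicing gene, differentiated minus undifferentiated (3 arrays each), with limma's 95% interval; blue genes were lower, orange higher and grey not past an adjusted p of 0.05. All 10 Sm and snRNP genes lie left of 0, between -1.32 (Snrpa1) and -0.24 (Snrpa), while 6 SR genes lie left and 4 right of 0; under cyclic loess scaling Snrpd1 moved to 0.10 and Lsm1 to 0.21.

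All 10 measured Sm and snRNP genes fell, where 19.1% of all genes did, with a median log2 fold change of -0.71. Snrpa1 (probe set 10553993), the U2-specific protein A′, read 0.76, 1.07 and 0.44 (centred log2) across the undifferentiated arrays, against -0.61, -0.44 and -0.65 across the differentiated ones; values are given in the order of replicates 1 to 3 throughout. It was 2.49-fold lower (-1.32 ± 0.14, SE, adjusted p = 8.11e-05), and the lowest undifferentiated array stood well above every differentiated one. Its partner on U2, Snrpb2 (protein B″), fell less (-0.33 ± 0.07).

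Snrpc, which encodes the U1 protein that helps hold U1 on the 5′ splice site, had values of 0.39, 0.50 and 0.33 in undifferentiated and -0.50, -0.38 and -0.34 in differentiated arrays. The groups were clearly apart, a 1.75-fold difference (-0.81 ± 0.07, adjusted p = 1.69e-05). The other U1-specific gene among the members, Snrpa (protein A of U1, which binds a stem-loop of U1 RNA), fell (-0.24 ± 0.06, adjusted p = 0.0180). Snrpa did not pass without differentiated replicate 2 (adjusted p = 0.0659).

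All 6 measured genes of the Sm ring, the collar shared by U1, U2, U4 and U5, fell by similar amounts. Snrpe (SmE) had values of 0.37, 0.64 and 0.23 in undifferentiated and -0.66, -0.23 and -0.56 in differentiated arrays. That is 1.86-fold lower (-0.90 ± 0.13, adjusted p = 5.46e-04), with the arrays of each group spread widely but not overlapping. The other ring genes followed at -0.74 ± 0.09 for Snrpd2, -0.71 ± 0.15 for Snrpd1, -0.71 ± 0.08 for Snrpg, -0.66 ± 0.07 for Snrpd3 and -0.64 ± 0.06 for Snrpb. Snrpd1 was the least even, at 0.74, 0.74 and 0.10 in undifferentiated and -0.10, -0.24 and -0.21 in differentiated arrays. Undifferentiated replicate 3 lay far below its companions there, and after cyclic loess scaling the sign of Snrpd1 turned and its call was lost (0.10, adjusted p = 0.338).

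**Figure D2:**
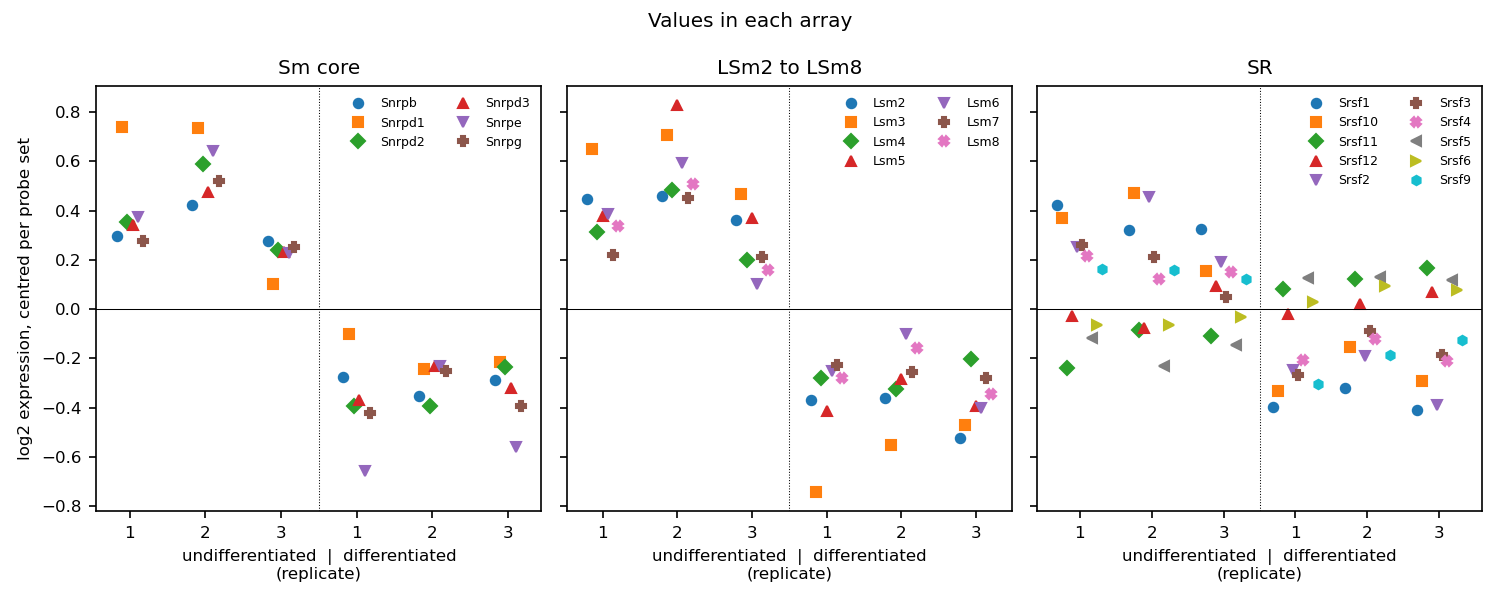
Centred log2 expression (vertical axis) in each of the 6 arrays (horizontal axis, replicates 1 to 3 of each group, which have no order) for the Sm ring, LSm2 to LSm8 and the SR genes; each symbol is 1 gene. Every Sm ring and LSm2 to LSm8 gene is above 0 in undifferentiated and below 0 in differentiated arrays. Centring at the median puts the groups of any probe set that do not overlap on opposite sides of 0. Snrpd1 in undifferentiated replicate 3 is the lowest undifferentiated Sm value at 0.10, and the sign of Snrpd1 turned under cyclic loess scaling.

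LSm2 to LSm8 form the ring on U6 RNA that protects its 3′ end and helps it pair with U4. All 7 genes of this ring fell, where 19.1% of all genes did, with a median of -0.61. Lsm3 (probe set 10540118) had values of 0.65, 0.71 and 0.47 in undifferentiated and -0.74, -0.55 and -0.47 in differentiated arrays. It was 2.29-fold lower (-1.19 ± 0.09, adjusted p = 7.63e-06), and the groups were separated by more than the spread within either. Lsm5 had values of 0.38, 0.83 and 0.37 against -0.41, -0.28 and -0.39, a fall of 0.89 (SE 0.12, adjusted p = 3.01e-04). Undifferentiated replicate 2 was the high array there, and the 3 probe sets of Lsm5 gave -1.14, -0.97 and -0.56. Lsm2 was more even, at 0.45, 0.46 and 0.36 against -0.37, -0.36 and -0.52 (-0.84 ± 0.06, adjusted p = 8.93e-06). The remaining members of the ring were Lsm6 (-0.61 ± 0.12), Lsm4 (-0.60 ± 0.08), Lsm8 (-0.60 ± 0.09) and Lsm7 (-0.55 ± 0.07).

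The LSm proteins outside the U6 ring changed less, with a median of -0.24 over 6 genes. Lsm14a, a P-body protein that binds translationally silent mRNA, fell (-0.54 ± 0.06), as did Lsm11 (-0.42 ± 0.06), a ring subunit of the U7 snRNP that trims histone mRNA. Lsm10, the partner of Lsm11 in U7, was at -0.13 ± 0.07 (adjusted p = 0.223) and did not pass. Lsm14b (-0.25 ± 0.07) and Lsm12 (-0.22 ± 0.07) passed on all 6 arrays but are unstable. Lsm14b lost its call without differentiated replicate 1 (adjusted p = 0.0738), differentiated replicate 3 (0.0628) or undifferentiated replicate 1 (0.0573). Lsm12 lost its call without either of differentiated replicates 1 (0.124) and 2 (0.0840) or undifferentiated replicates 1 (0.103) and 2 (0.123), and with the replicate block (0.0582). Lsm1, which replaces LSm8 in the cytoplasmic ring of mRNA decay, was at -0.24 ± 0.11 and did not pass (adjusted p = 0.150). It had a fall of 0.38 without undifferentiated replicate 3 (adjusted p = 0.00153), and it was called higher at 0.21 after cyclic loess (adjusted p = 0.0194).

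The U2AF genes, whose dimer reads the polypyrimidine tract and the AG at the 3′ splice site, fell 3 of 3. The share over all genes was 19.1%. U2af1, the small subunit, had values of 0.36, 0.37 and 0.21 in undifferentiated and -0.25, -0.21 and -0.41 in differentiated arrays, 1.51-fold lower (-0.60 ± 0.07, adjusted p = 1.86e-04). U2af2, the large subunit, was nearly the same, at 0.31, 0.36 and 0.19 against -0.32, -0.19 and -0.41 (-0.59 ± 0.07, adjusted p = 1.97e-04). U2af1l4, a relative of the small subunit, had values of 0.29, 0.17 and 0.19 against -0.17, -0.20 and -0.29 (-0.44 ± 0.06, adjusted p = 3.74e-04). In each of them all undifferentiated arrays stood above all differentiated ones.

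SF3 genes fell 7 of 9 (77.8%, against 19.1% of all genes), with a median of -0.34. The SF3a complex fell whole. Sf3a2 had values of 0.35, 0.21 and 0.38 in undifferentiated and -0.25, -0.21 and -0.35 in differentiated arrays (-0.58 ± 0.07, 1.50-fold lower, adjusted p = 1.18e-04). Sf3a3 had 0.24, 0.30 and 0.15 against -0.32, -0.15 and -0.30 (-0.49 ± 0.07, adjusted p = 3.98e-04), again with no overlap, and Sf3a1 was at -0.34 ± 0.06. The SF3b complex, which grips the branch point adenosine, was less uniform. Its scaffold subunits did not pass: Sf3b1, a gene often mutated in myelodysplasia, was at -0.08 ± 0.05 (adjusted p = 0.314), and Sf3b3 at 0.06 ± 0.05 (adjusted p = 0.407). Sf3b2, a subunit near the branch point, fell (-0.42 ± 0.05).

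Sf3b6, the subunit that lies beside the branch point, had values of 0.32, 0.55 and 0.04 in undifferentiated and -0.20, -0.13 and -0.04 in differentiated arrays (-0.43 ± 0.11, adjusted p = 0.0171). Undifferentiated replicate 3 stood close to the differentiated arrays, and the call was lost without differentiated replicate 1 (adjusted p = 0.0646) and after cyclic loess (-0.10, adjusted p = 0.421). Sf3b5 (-0.24 ± 0.08, adjusted p = 0.0429) and Sf3b4 (-0.23 ± 0.06, adjusted p = 0.0149) are also unstable. Sf3b5 lost its call without differentiated replicate 1 (0.144) or 3 (0.109), without undifferentiated replicate 1 (0.140) or 2 (0.109), and after quantile (0.0501) or cyclic loess scaling (0.0550). Sf3b4 lost its call without differentiated replicate 3 (0.0598) or undifferentiated replicate 2 (0.0572).

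PRPF genes fell 7 of 12 (58.3%, against 19.1% of all genes), with a median of -0.40. In this family 1 gene rose (8.33%), a smaller share than the 16.4% of all genes that rose. Of the 5 tri-snRNP genes 4 fell. Prpf31, which bridges U4/U6 to U5, had values of 0.41, 0.40 and 0.29 in undifferentiated and -0.31, -0.39 and -0.29 in differentiated arrays, 1.62-fold lower (-0.70 ± 0.06, adjusted p = 1.64e-05). Prpf8, the large protein that cradles the catalytic RNA, had 0.37, 0.28 and 0.31 against -0.28, -0.28 and -0.39 (-0.63 ± 0.06, adjusted p = 3.26e-05). Prpf3, a U4/U6 protein, had 0.30, 0.39 and 0.24 against -0.24, -0.39 and -0.28 (-0.62 ± 0.06, adjusted p = 6.58e-05). These 3 genes had tight and fully separated groups. The U4/U6 protein Prpf4 fell as well (-0.52 ± 0.06), while Prpf6, which links U5 to U4/U6, was at -0.03 ± 0.07 (adjusted p = 0.798) with overlapping arrays.

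Outside the tri-snRNP, the ubiquitin ligase Prpf19 (-0.61 ± 0.06), Prpf38a (-0.46 ± 0.07) and the second-step factor Prpf18 (-0.34 ± 0.08) fell. After cyclic loess Prpf18 no longer passed (-0.15, adjusted p = 0.199). The kinase gene Prpf4b (-0.16 ± 0.06, adjusted p = 0.0650), Prpf38b (-0.14 ± 0.06, adjusted p = 0.0843) and Prpf39 (0.03 ± 0.09, adjusted p = 0.850) did not pass. Prpf4b passed without undifferentiated replicate 3 (adjusted p = 0.0478) or with array weights (0.0459), and Prpf38b after cyclic loess (0.0494). Prpf40b, a relative of a U1-associated yeast protein, was the 1 riser, at -0.03, -0.15 and -0.04 in undifferentiated and 0.11, 0.03 and 0.16 in differentiated arrays (0.18 ± 0.06, adjusted p = 0.0497). The groups did not overlap, but the value lies at the threshold, and the call was lost without any 1 array except differentiated replicate 2 (adjusted p from 0.0573 without undifferentiated replicate 3 to 0.164 without differentiated replicate 3).

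SR proteins carry RNA-recognition domains and a tail rich in arginine and serine, and 6 of the 10 measured genes fell, 2 rose and 2 did not pass (median -0.35). The 6 that fell are a share of 60%, against 19.1% of all genes, and the 2 that rose are a share of 20%, near the 16.4% of all genes that rose. Srsf1 (probe set 10380210), the founding member, had values of 0.42, 0.32 and 0.32 in undifferentiated and -0.40, -0.32 and -0.41 in differentiated arrays. It was 1.66-fold lower (-0.73 ± 0.06, adjusted p = 1.02e-05), with a gap between the groups far wider than the spread inside them. Srsf10, which acts as a repressor when dephosphorylated, had 0.37, 0.47 and 0.16 against -0.33, -0.16 and -0.29 (-0.59 ± 0.09, adjusted p = 6.26e-04). Srsf2 (SC35, a mark of nuclear speckles) had 0.25, 0.45 and 0.19 against -0.25, -0.19 and -0.39 (-0.57 ± 0.08, adjusted p = 5.32e-04). In both, undifferentiated replicate 3 was the lowest of its group and still above every differentiated array. Srsf3, which also serves mRNA export, (-0.36 ± 0.07), Srsf9 (-0.35 ± 0.06) and Srsf4 (-0.34 ± 0.06) fell less.

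The SR genes that rose were Srsf5 and Srsf11. Srsf5 had values of -0.12, -0.23 and -0.14 in undifferentiated and 0.12, 0.13 and 0.12 in differentiated arrays, 1.22-fold higher (0.29 ± 0.05, adjusted p = 0.00243). The differentiated arrays lay almost on top of one another, and the 2 probe sets of the gene gave 0.29 and 0.28. Srsf11, an SR-related protein, was 1.20-fold higher (0.27 ± 0.06, adjusted p = 0.00708). Srsf6 was at 0.12 ± 0.05 and Srsf12 at 0.03 ± 0.06, and neither passed (adjusted p = 0.101 and 0.801).

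To show what lies before genes that changed most, the 250 bases before the annotated start are given for the 3 largest falls and the largest rise of the SR family and for the 3 largest falls of the Sm and snRNP family, whatever motifs they hold. Each of these 7 genes has 1 window, read 5′ to 3′ on the gene's strand from RefSeq's promoter windows (GRCm38.p6). Capitals mark matches to GGCGGGA, an E2F-type motif, and to CCGGAAG, an ETS-type motif, on either strand (TCCCGCC and CTTCCGG on the other). Srsf5 rose and the others fell. Srsf1 and Srsf10 hold the E2F-type letters, Srsf5 and Snrpc the ETS-type letters, and Srsf2, Snrpa1 and Snrpe neither.
Srsf1 (chr11:88047123-88047372, + strand): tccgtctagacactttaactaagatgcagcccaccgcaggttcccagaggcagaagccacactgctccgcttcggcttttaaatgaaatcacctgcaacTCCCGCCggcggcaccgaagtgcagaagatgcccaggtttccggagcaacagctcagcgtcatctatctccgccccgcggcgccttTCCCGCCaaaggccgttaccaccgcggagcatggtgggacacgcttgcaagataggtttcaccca
Srsf10 (chr4:135855821-135856070, + strand): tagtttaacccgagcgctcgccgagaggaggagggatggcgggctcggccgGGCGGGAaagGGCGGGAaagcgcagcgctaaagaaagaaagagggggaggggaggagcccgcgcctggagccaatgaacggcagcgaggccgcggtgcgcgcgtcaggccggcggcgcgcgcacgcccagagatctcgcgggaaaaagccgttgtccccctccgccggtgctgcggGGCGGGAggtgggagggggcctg
Srsf2 (chr11:116853095-116853344, - strand): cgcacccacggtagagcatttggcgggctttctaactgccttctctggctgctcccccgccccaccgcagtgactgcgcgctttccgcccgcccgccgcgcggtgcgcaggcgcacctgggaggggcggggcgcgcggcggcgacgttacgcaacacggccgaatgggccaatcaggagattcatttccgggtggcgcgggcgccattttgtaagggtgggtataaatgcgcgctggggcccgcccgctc
Srsf5 (chr12:80945249-80945498, + strand): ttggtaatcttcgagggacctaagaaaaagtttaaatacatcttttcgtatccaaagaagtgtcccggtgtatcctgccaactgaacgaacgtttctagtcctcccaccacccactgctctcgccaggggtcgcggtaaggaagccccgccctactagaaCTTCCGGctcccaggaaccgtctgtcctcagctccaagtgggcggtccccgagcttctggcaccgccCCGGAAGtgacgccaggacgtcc
Snrpa1 (chr7:66060086-66060335, + strand): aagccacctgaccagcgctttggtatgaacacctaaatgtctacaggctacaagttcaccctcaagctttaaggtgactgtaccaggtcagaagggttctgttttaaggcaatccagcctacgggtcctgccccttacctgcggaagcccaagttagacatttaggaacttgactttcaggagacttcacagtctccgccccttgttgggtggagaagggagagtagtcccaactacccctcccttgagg
Snrpe (chr1:133610281-133610530, - strand): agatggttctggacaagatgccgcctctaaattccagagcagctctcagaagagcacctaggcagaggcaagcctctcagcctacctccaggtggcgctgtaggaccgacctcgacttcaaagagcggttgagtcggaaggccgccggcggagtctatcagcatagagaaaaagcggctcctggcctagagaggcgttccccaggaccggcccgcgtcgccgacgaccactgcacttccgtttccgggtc
Snrpc (chr17:27839837-27840086, + strand): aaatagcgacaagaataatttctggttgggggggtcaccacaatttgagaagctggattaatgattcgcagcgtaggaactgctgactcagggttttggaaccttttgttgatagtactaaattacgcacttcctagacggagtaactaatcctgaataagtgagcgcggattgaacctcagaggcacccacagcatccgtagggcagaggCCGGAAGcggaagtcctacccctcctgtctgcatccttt

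Windows were found for 63 of the 74 members, 83 windows in all, and some windows of 1 gene overlap. The E2F-type letters occurred in a window of 20 of the 48 genes that fell (41.7%), of 0 of the 3 that rose and of 0 of the 12 that did not pass, against 15.6% of the 15614 tested genes with a window. In the same order the ETS-type letters occurred in 14 of 48 (29.2%), 2 of 3 and 2 of 12 genes, against 10.7% of tested genes. CCAAT occurred in 24 of 48, against 38.8%, and the MYC-type E-box CACGTG in 4 of 48 (8.33%), against 8.11%. The NRF1-type letters GCATGCG (5 of 48, 10.4%, against 4.58%) and the YY1-type letters AAGATGG (2 of 48, 4.17%, against 4.87%) were also counted on both strands. Windows of the genes that fell had a median GC content of 61.4%, against 56.8% in tested genes, and its part in these shares was not tested. A match of letters is a description and not a binding site.

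The hnRNPs, which coat nascent RNA, fell in 13 of 17 genes (76.5%, against 19.1% of all genes), with a median of -0.33. None rose, against 16.4% of all genes. Hnrnpr, an RNA-binding protein of the hnRNP Q/R type, had values of 0.42, 0.53 and 0.43 in undifferentiated and -0.42, -0.42 and -0.49 in differentiated arrays. It was 1.86-fold lower (-0.90 ± 0.06, adjusted p = 2.78e-06), with both groups tight. Hnrnpd (AUF1, which binds AU-rich elements and speeds mRNA decay) had 0.34, 0.37 and 0.34 against -0.57, -0.34 and -0.57 (-0.85 ± 0.07, 1.80-fold lower, adjusted p = 1.87e-05). Hnrnpl, a binder of CA repeats, had 0.38, 0.47 and 0.32 against -0.32, -0.42 and -0.40 (-0.77 ± 0.06, adjusted p = 1.11e-05). No array of either group came near the other group in these genes.

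A middle band held Hnrnpul1 (-0.59 ± 0.06), Hnrnpa0 (-0.57 ± 0.10), Hnrnpm (-0.57 ± 0.05), Hnrnpab (-0.53 ± 0.07) and the core particle gene Hnrnpc (-0.38 ± 0.09). Smaller falls were seen in Hnrnpul2 (-0.33 ± 0.05), Hnrnph1 (-0.32 ± 0.05) and Hnrnpa2b1 (-0.30 ± 0.05). Hnrnpk (-0.18 ± 0.05, adjusted p = 0.0223) and Hnrnpf (-0.17 ± 0.05, adjusted p = 0.0326), which bind C-rich and G-rich RNA, passed by little. Hnrnpk lost its call without differentiated replicate 1 (0.0656) or 3 (0.0680) and without undifferentiated replicate 2 (0.0538) or 3 (0.0561). Hnrnpf lost its call without any 1 array but undifferentiated replicate 3 (from 0.0525 without differentiated replicate 2 to 0.115 without differentiated replicate 1) and with the replicate block (0.0530). Hnrnph2 (-0.18 ± 0.09), the nuclear scaffold protein gene Hnrnpu (-0.10 ± 0.05), Hnrnpdl (-0.07 ± 0.06) and Hnrnpll (0.08 ± 0.06) did not pass, with adjusted p-values from 0.156 to 0.454. Hnrnph2 passed without differentiated replicate 2 (0.0449).

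The difference between the log2 fold changes of 2 relatives was tested directly in 15 pairs, with limma on the within-array differences and adjustment over the 15 pairs, and 12 pairs differed. Unrelated pairs were not tested, so the count is not particular to relatives. The widest gap lay between Hnrnpl and Hnrnpll, the regulator best known for Ptprc exons in lymphocytes, at -0.85 ± 0.05 (SE, adjusted p = 6.10e-08). Hnrnpd fell 0.77 further than Hnrnpdl (difference -0.77 ± 0.05, adjusted p = 2.37e-07) and 0.32 further than Hnrnpab (difference -0.32 ± 0.06, adjusted p = 9.98e-04). Among the SR proteins with a pair of RNA-recognition domains, Srsf4 and Srsf5 differed by -0.63 ± 0.05 (adjusted p = 5.92e-07) and Srsf4 and Srsf6 by -0.46 ± 0.05 (adjusted p = 1.16e-05). Srsf5 also differed from Srsf6 (0.17 ± 0.05, adjusted p = 0.00963), and Srsf1 from Srsf9 (-0.38 ± 0.06, adjusted p = 2.44e-04).

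The other pairs that differed were Prpf38a and Prpf38b (-0.32 ± 0.07), Lsm14a and Lsm14b (-0.29 ± 0.06), Hnrnpul1 and Hnrnpul2 (-0.27 ± 0.05), U2af1 and U2af1l4 (-0.16 ± 0.06) and Hnrnph1 and Hnrnpf (-0.14 ± 0.05), with adjusted p from 9.98e-04 to 0.0265. No difference passed for Srsf2 and Srsf1 (95% interval -0.02 to 0.33), Hnrnph1 and Hnrnph2 (-0.30 to 0.03) or Snrpa and Snrpb2 (-0.07 to 0.24).

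**Figure D3:**
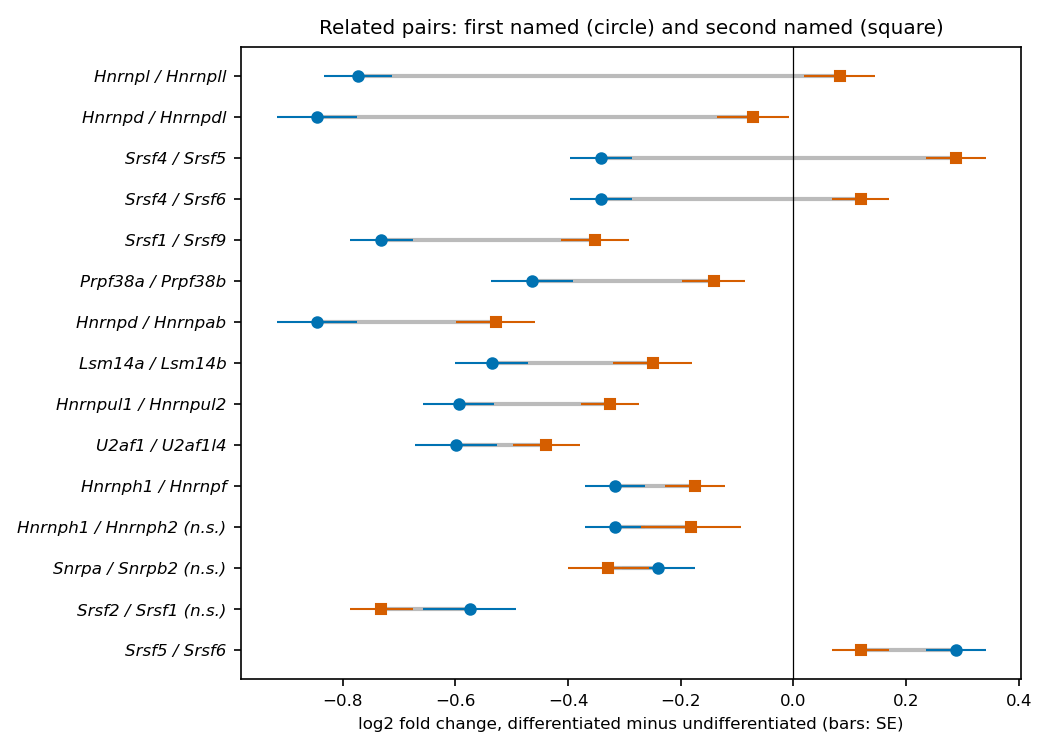
Log2 fold change, differentiated minus undifferentiated, of the first named (blue circle) and second named (orange square) gene of each related pair, with SE bars from limma (3 arrays per group); n.s. marks the 3 pairs whose difference did not pass an adjusted p of 0.05. Hnrnpl is at -0.77 and Hnrnpll at 0.08, and Srsf4 at -0.34 and Srsf5 at 0.29.

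Partner genes outside the member families fell in uneven shares. Over 8 lists of splicing genes and partners of member proteins, 85 of 145 measured genes fell (58.6%) and 9 rose (6.21%), with a median of -0.24. Of all genes 19.1% fell and 16.4% rose. The share that fell ran from 80% of the snRNP assembly and maturation genes to 25% of the SR protein kinase list. Of 47 other spliceosome components 35 fell and none rose (median -0.33), led by Ppih, a tri-snRNP prolyl isomerase (-1.39 ± 0.06), the helicases Ddx39b (-0.72 ± 0.05) and Ddx46 (-0.60 ± 0.08), and the splicing factor Rbm17 (-0.60 ± 0.08). Minor spliceosome proteins fell in 6 of 8 genes (median -0.27), with Snrnp25 (-0.85 ± 0.06) first.

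The list of snRNP assembly and maturation, which includes the machinery that loads Sm rings onto snRNA, fell in 16 of 20 genes and rose in 1. Its median was -0.49. Gemin6, an Sm-like subunit of the SMN complex, was 3.06-fold lower (-1.61 ± 0.17, adjusted p = 7.48e-05). Prmt5, the methyltransferase that modifies Sm tails, fell (-0.75 ± 0.10), as did Larp7 (-0.78 ± 0.08) and the SMN partner Gemin2 (-0.74 ± 0.11). The riser was Usb1, the exonuclease that trims U6 RNA (0.41 ± 0.06, adjusted p = 7.85e-04), opposite to the U6 ring genes.

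Kinases that phosphorylate SR proteins, listed with their import receptor, divided: 4 of 8 genes rose (50%) and 2 fell (25%), with a median of 0.11. Of all genes 16.4% rose and 19.1% fell. The nuclear kinases Clk1 (0.55 ± 0.06, adjusted p = 1.09e-04) and Clk4 (0.37 ± 0.05), with Srpk2 (0.46 ± 0.06), rose, as did Clk3 (0.17 ± 0.05, adjusted p = 0.0273), while the receptor Tnpo3 (-0.68 ± 0.05) and the cytoplasmic kinase Srpk1 (-0.43 ± 0.09) fell. SR-related and exon junction complex genes fell in 8 of 12 genes (median -0.23), led by Rnps1 (-0.66 ± 0.07) and Eif4a3 (-0.62 ± 0.07). Among 11 hnRNPs that go by other names 5 fell (45.5%) and 1 rose (9.09%), with a median of -0.11. Rbmx (hnRNP G) was 3.13-fold lower (-1.65 ± 0.10, adjusted p = 2.48e-06), followed by Ptbp1 (-0.76 ± 0.06), Syncrip (-0.56 ± 0.08), Ptbp3 (-0.44 ± 0.07) and Ptbp2 (-0.39 ± 0.06). The cold-inducible RNA-binding protein gene Cirbp rose (0.30 ± 0.07).

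Of the tissue splicing regulators 10 of 29 fell (34.5%), 1 rose (Qk, 0.21 ± 0.07) and the median was -0.00, with Tia1 (-0.50 ± 0.06) the largest fall. Of 10 decapping and histone-processing partners of LSm proteins 3 fell (30%) and 2 rose (20%), with a median of -0.06. Of all genes 19.1% fell and 16.4% rose, so the shares of the 10 decapping and histone-processing partners lie near those of all genes. The tissue regulators fell in a larger share than all genes and rose in a smaller one (3.45%). Slbp, the histone mRNA stem-loop binder, fell (-0.69 ± 0.07), as did the decapping genes Dcp2 (-0.55 ± 0.09) and Dcp1a (-0.29 ± 0.08), and the decapping activators Patl1 (0.47 ± 0.06) and Edc3 (0.39 ± 0.06) rose.

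**Figure D4:**
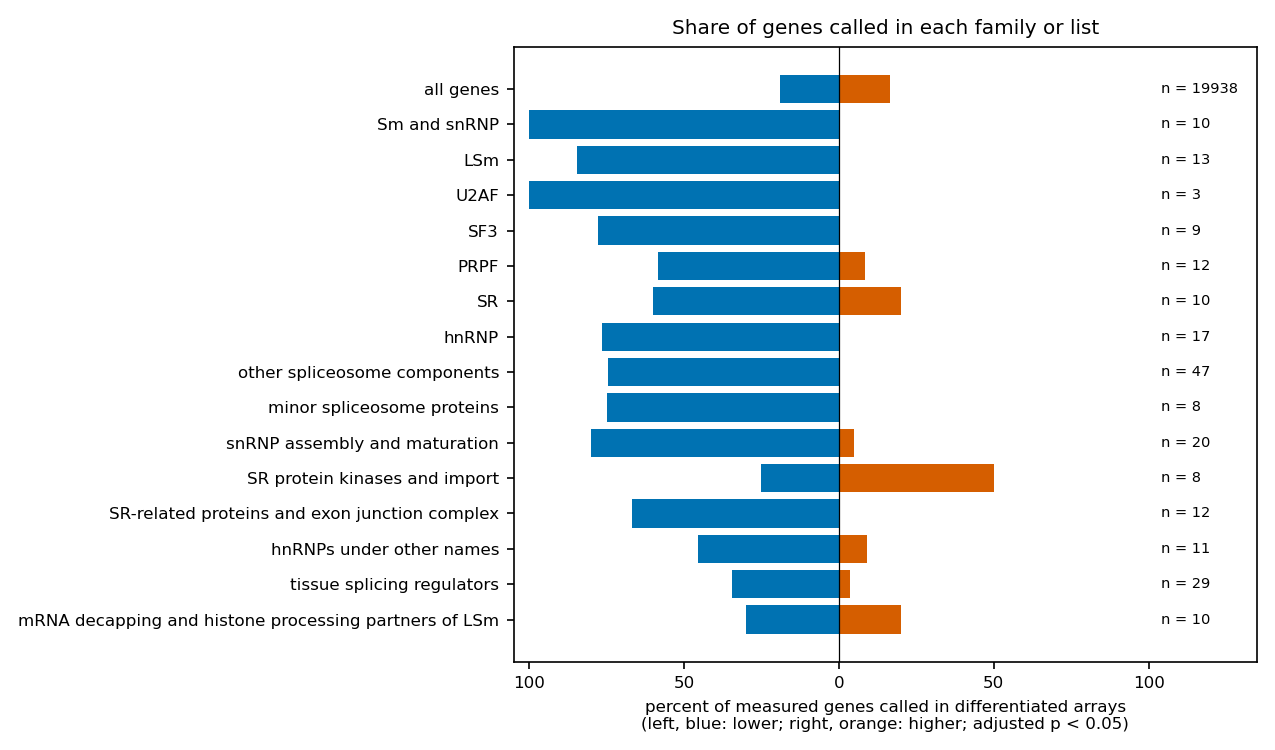
Percent of the measured genes of each family or list called lower (blue, to the left) or higher (orange, to the right) in differentiated arrays at an adjusted p under 0.05, with the number measured at the right. All genes stand at 19.1% lower and 16.4% higher; the Sm and snRNP and the U2AF families are lower throughout, and SR protein kinases with their import receptor are the list with more genes higher (4) than lower (2).

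Of the members, 14 are read by several probe sets, 38 in all, of which 32 were lower and 2 higher when each was tested alone. Among all 21789 probe sets that name 1 gene, 4193 were lower and 3468 higher in that fit. In no gene were probe sets called in opposite directions. Hnrnph2 (-0.27 and -0.10) and Sf3b4 (-0.29 and -0.17) each had 1 probe set called lower and 1 that did not pass. Hnrnpk and Hnrnpf also each had 1 that did not pass. The widest spread was that of Lsm5, 0.58 on the log2 scale, and the 5 probe sets of Snrpd2 ran from -0.83 to -0.57. Small Sm, LSm and hnRNP genes have processed copies elsewhere in the genome, so how far a probe set reads a copy is uncertain.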

How the data were processed

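RNA from 6 samples, 3 undifferentiated and 3 differentiated, was measured on 1-colour arrays, grouped and numbered by title. The values are log2 expression as the authors deposited them, made with RMA (version not given) per the submitters' processing notes. Every probe set's 6 values have their median at 0 (tolerance 1e-06), a centring seen in the values, which removes levels and leaves differences. Precision is limited by the number of arrays. The platform annotation names 1 gene for 21789 of 28856 probe sets, several for 1621 and none for 5446, with symbols checked by gene ID against RefSeq (GRCm38.p6, 21698 matched). Probe sets of 1 gene were averaged. The contrast of differentiated minus undifferentiated was fitted without a replicate block by limma (lmFit, then eBayes, two-sided tests) on all 19938 genes, with Benjamini-Hochberg adjustment over all of them and a threshold of 0.05. Errors are moderated SEs. Without adjustment 8584 genes had p under 0.05.

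Members, lists and pairs were chosen with earlier results of these data known. Every member is named; values per array are given for the 3 largest changes in each family and the largest opposite one, and for Snrpd1, chosen after its values were seen. From other lists at most 4 genes are named, those with the largest changes past the threshold, besides Usb1, Qk, Clk3, Clk4, Ptbp2, Cirbp, Dcp1a, Pcna and Sp7, chosen after their values were seen. The fit was tested on simulated data. Alternatives were the replicate block, other scalings, other handling of probe sets, array weights, robust eBayes, platform symbols and each array left out. R 4.3.3, limma 3.58.1, Python 3.11.15, pandas 2.3.3 and matplotlib 3.10.9 were used.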

Additional observations from a re-analysis of the deposited data

How the results depend on the processing

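Over the settings that give a value per gene, 49 of the 60 called members kept their call wherever they were tested, 10 lost it in at least 1 setting and 1, Snrpd1, turned sign. Snrpd1 went to 0.10 and Lsm1 to 0.21 after cyclic loess; the cause was not tested. The falls numbered 51 to 58 and the rises 2 to 3 with each array left out. With the replicate block 55 fell and 3 rose. Deviations of same-numbered arrays correlated at -0.00, 0.07 and 0.16, and those of differently numbered arrays at -0.18 to 0.13. The numbers were not taken as pairs. Cyclic loess gave 1 LSm gene higher. With only genes of 1 probe set, which drops Srsf5, 1 member was higher in all, 1 in the SR family and 0 in the PRPF family. The PRPF family also had 0 higher with every probe set tested, the lowest-numbered probe set, median centring or robust eBayes, and 0 to 1 with each array left out. Testing every probe set gave 17 Sm and snRNP probe sets lower, since several read 1 gene. Settings chosen after seeing the data gave 11 to 13 related pairs that differed, and 71 to 86 genes of the 8 partner lists lower. A filter on low values needs a level and was not run. Counts of calls over all genes stayed within 1.5 times.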
